A study of Mus musculus with 2 samples.

Results

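The Toll-like receptors (TLRs) 1 to 9 and the co-receptor gene Cd14 were described across the arrays of one study of mouse acute myeloid leukaemia. Every non-control spot whose gene name on the array equals a member was taken, which gave 12 probes on 30 spots for all 10 genes, out of 41174 probes of 27339 gene names on the array. The cells were leukemia-initiating cells, the fraction able to start the disease again, from bone marrow of female mice whose leukaemia carries the MLL-AF9 fusion with a YFP reporter. They were sorted as positive for YFP, Mac-1 and c-Kit, and came from Jam3-null leukaemia or from leukaemia with wild-type Jam3 (WT). Jam3 encodes junctional adhesion molecule 3, and both genotypes carry MLL-AF9. The data were 2 one-colour arrays, 1 for each genotype, and each label names 3 mice as the source of the cells. Strain, age and how Jam3 was removed are not given in the sources used here. Jam3 itself passed the scanner software's test for signal above background with neither of its 2 probes on either array. Their signals were 28.1 and 5.40 on the array labelled Jam3-null and 5.09 and 3.23 on the array labelled WT, not lower under the Jam3-null label, so they lend the labels no check. Since each genotype has 1 array, there is no replicate check and no p-value, and every difference is one between these arrays and not between the genotypes at large.

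TLRs are membrane proteins of innate immune cells that bind microbial molecules through leucine-rich repeats and signal through an intracellular TIR domain. TLR2 pairs with TLR1 or TLR6 to read bacterial lipopeptides, TLR4 reads lipopolysaccharide with the help of CD14, and TLR5 reads flagellin, all at the cell surface. TLR3, TLR7, TLR8 and TLR9 read nucleic acids in endosomes. In the myeloid lineage several of these receptors, and CD14, are known from monocytes, macrophages and neutrophils more than from their progenitors.

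The probes are 60-base oligonucleotides from the transcripts, and their letters show what the array read. The probes of Tlr2 and Tlr1 are shown because both lie near the end of the coding sequence, where these related genes encode the TIR domain, so that each could in principle bind the other's transcript. The probe of Tlr8, also from coding sequence, is shown because this gene was seen on 1 array only. Capitals mark bases that are identical in the best alignment of the first 2 probes without gaps, and positions are on mm9, as printed in the array files. The Tlr2 probe lies at chr3:83640344-83640403, the Tlr1 probe at chr5:65316115-65316174 and the Tlr8 probe at chrX:163680715-163680774, each on the minus strand.
Tlr2: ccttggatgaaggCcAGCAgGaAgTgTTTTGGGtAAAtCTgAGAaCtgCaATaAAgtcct
Tlr1: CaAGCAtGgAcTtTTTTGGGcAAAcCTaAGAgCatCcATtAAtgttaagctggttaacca
Tlr8: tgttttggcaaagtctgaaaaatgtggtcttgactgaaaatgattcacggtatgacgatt
The Tlr2 and Tlr1 probes shared 29 identical bases in an overlap of 47, with a longest identical run of 7 bases. Over all 45 pairs of the genes' main probes the shared bases ranged from 18 to 29 with a median of 21, and the longest identical run of any pair was 8 bases. Probes were compared only with each other and not with the other genes' transcripts. Most pairs may come from unlike positions of the genes, so binding to another member's transcript was not tested.

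Differences below are log2 values, Jam3-null minus WT, after each array was scaled to its 75th percentile, so that positive values mark genes brighter in Jam3-null cells. A signal is the scanner software's background-subtracted intensity, and a gene is called measured where its probe was well above background by that software. Of the 10 genes, 7 were measured on both arrays (Tlr1, Tlr2, Tlr4, Tlr6, Tlr7, Tlr9 and Cd14), Tlr8 was measured on the Jam3-null array only, Tlr5 on the WT array only and Tlr3 on neither. The 7 genes split into 5 that were at least 2-fold higher on the Jam3-null array and 2, Tlr6 and Tlr9, that lay within 2-fold, and 0 were at least 2-fold lower. Among all 14360 genes measured on both arrays, 10.3% passed 2-fold upward and 8.59% downward, and the median difference was -0.07, against 1.85 for the 7 genes. A gene enters this comparison only if it was well above background on both arrays, which leaves out Tlr3, Tlr5 and Tlr8. These counts therefore do not speak for all members. Of 27333 genes with spots left after flagging, 487 were measured on the Jam3-null array only and 2458 on the WT array only. The plot of signals by probe shows the split.

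**Figure D1:**
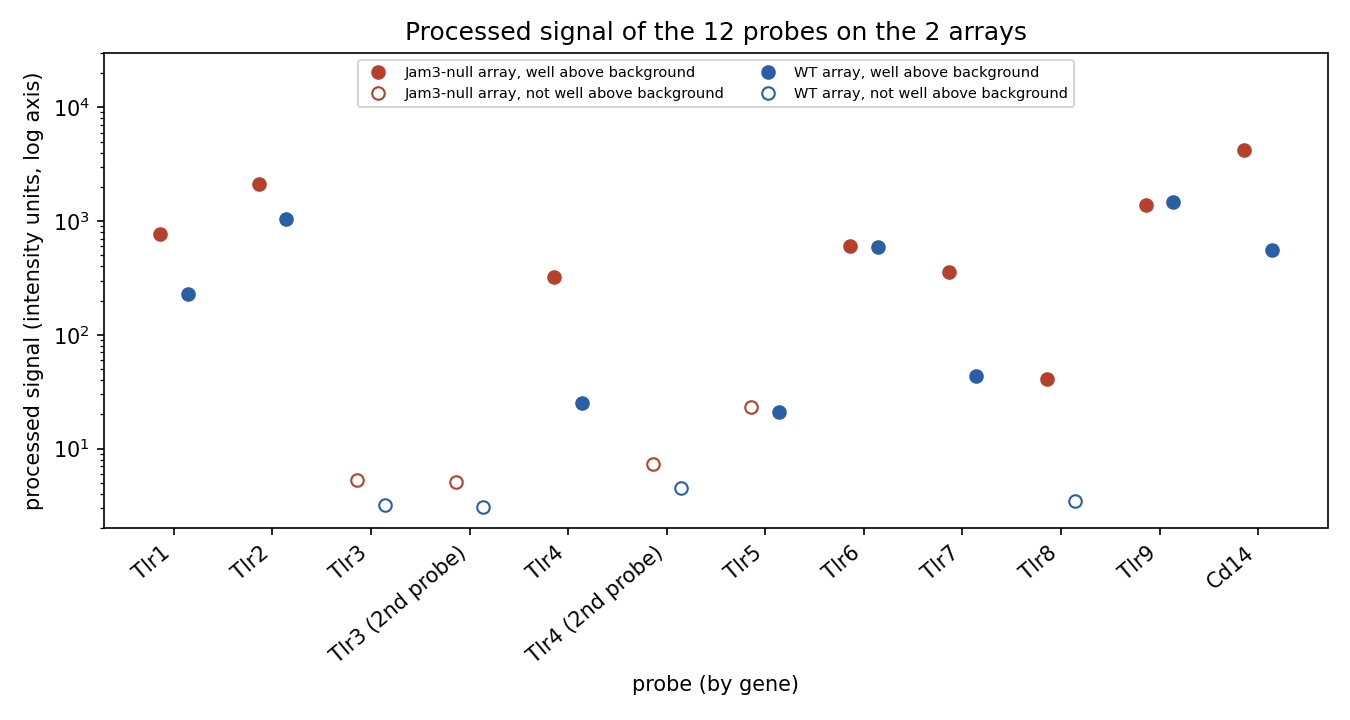
Processed signal of each of the 12 probes (log axis) on the Jam3-null array (red) and the WT array (blue), with open circles where a probe was not well above background; a point of Tlr2 or the first Tlr4 probe is a mean of 10 spots. Tlr4, Tlr7 and Cd14 lie far apart on the arrays, whereas the points of Tlr6 and of Tlr9 lie at about the same height.

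Tlr4, the lipopolysaccharide receptor, had the largest difference of the 7 genes measured on both arrays, though not after the normexp background correction described below. Its main probe, from transcript NM_021297, lies at chr4:66503724-66503782 on mm9 and was printed in 10 spots, which give a direct view of the error within an array. On the Jam3-null array the spots had signals from 294 to 352 with a median of 318, and on the WT array from 17.5 to 43.1 with a median of 20.9. The spots of the arrays did not overlap, and all 10 were well above background on each array. The mean log2 difference was 3.83, or 14.3-fold, with an SD of 0.38 over spots and a range from 3.13 to 4.23. Of the genes measured on both arrays 0.717% had a difference as high or higher.

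The size of the Tlr4 difference is less firm than its direction because the WT spots were close to the background. Before any subtraction the WT spots had a median intensity of 66.4 over a local background of 46, and the Jam3-null spots 367 over 51.3. After normexp background correction, which adds an offset of 50 to every signal and so pulls dim genes toward 0, the difference was 2.19. A second probe that the array assigns to Tlr4, from the Ensembl transcript ENSMUST00000107365, lies 86.8 kb further along the chromosome, at chr4:66590556-66590615. It passed on neither array, with signals of 7.34 and 4.46, and gives no fold.

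Cd14, which hands lipopolysaccharide to TLR4, was also higher on the Jam3-null array. Its probe, from transcript NM_009841 on chromosome 18, had a signal of 4176 in Jam3-null cells and 555 in WT cells. The log2 difference was 3.01, or 8.04-fold, with an SD of 0.20 from the scanner software's error model, which covers measurement error on the array only. Both signals were far above background, and the difference stayed at 2.79 after normexp correction. The Tlr4 and Cd14 differences were 0.83 apart with an error-model SD of 0.37, and after normexp correction Cd14 had the higher of the 2 values. That SD takes the error of a single spot, although the Tlr4 value is a mean of 10 spots.

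The other genes of lipopolysaccharide recognition differed in direction. Lbp, the plasma protein that loads lipopolysaccharide onto CD14, was higher, with signals of 9752 and 1399 and a log2 difference of 2.90. Ly96, named after its value was seen, which encodes MD-2, the subunit that binds lipopolysaccharide on TLR4, went the other way, with 194.9 in Jam3-null cells and 445 in WT cells, a log2 difference of -1.09 (-0.86 after normexp correction). The related pair of RP105, encoded by Cd180, and its partner MD-1, encoded by Ly86, was lower too: Cd180 had 108 and 568, a log2 difference of -2.30, and Ly86 had 10141 and 59304, a log2 difference of -2.45. RP105 is a TLR-like protein without a TIR domain, known from B cells and myeloid cells. In the list of 8 co-receptors and chaperones 7 genes were measured on both arrays, of which 1 passed 2-fold upward and 3 downward (median 0.01; 2 downward after normexp correction).

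The receptors of bacterial lipopeptides gave 3 different values. Tlr2, the subunit common to both receptor pairs, was printed in 10 spots, with signals from 2011 to 2251 (median 2112) on the Jam3-null array and from 991 to 1130 (median 1042) on the WT array. Every spot of the first array was above every spot of the second, and the log2 difference was 1.11, or 2.16-fold, with an SD of 0.03 over spots. This small spread shows how repeatable a bright probe is within these arrays. Tlr2 lies just past 2-fold, and its difference ranged from 1.03 to 1.21 over the alternatives, above 1 in each.

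Tlr1, which completes one receptor pair with TLR2, had a signal of 776 in Jam3-null cells and 229.8 in WT cells, a log2 difference of 1.85 (3.61-fold, error-model SD 0.21). Tlr6, which completes the other pair, had 607 and 588, a log2 difference of 0.14 with an error-model SD of 0.20. Its probe, from transcript NM_011604, lies at chr5:65344365-65344424. Tlr1 and Tlr6 are neighbours on chromosome 5, with 0 other genes starting between them in the RefSeq annotation. Their differences were 1.71 apart, against an error-model SD of 0.29, and Tlr2 and Tlr6 were 0.97 apart with the same SD of 0.29. The error model was taken for a single spot, although the Tlr2 value is a mean of 10 spots. The spread between animals is not part of these errors.

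**Figure D2:**
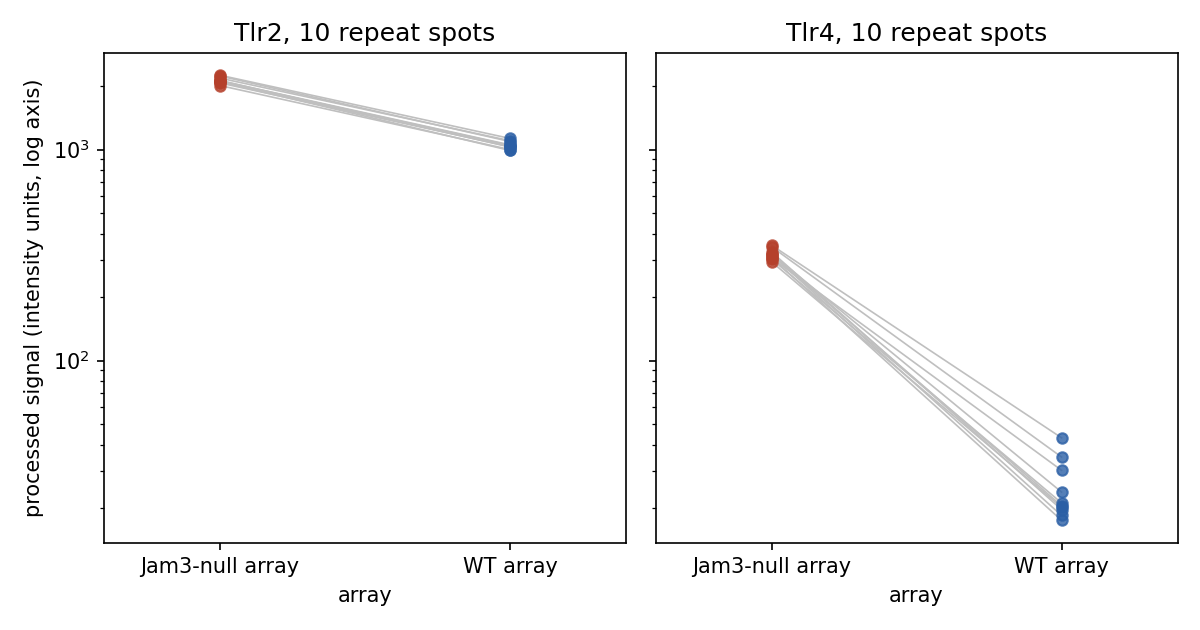
Processed signal (log axis) of the 10 repeat spots of the Tlr2 probe and the 10 of the Tlr4 probe on the Jam3-null and the WT array, with a line joining the same spot position. The Tlr2 spots lie between 2011 and 2251 on the Jam3-null array and between 991 and 1130 on the WT array; the Tlr4 spots spread more on the WT array, from 17.5 to 43.1.

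The promoters of these 3 genes are shown because their differences ranged from 0.14 to 1.85 although their products work in pairs. RefSeq windows on GRCm38.p6 were found for 7 of the 10 genes, with 9 windows in all. Each sequence below is the 250 bases before the start site, 5′ to 3′ on the gene's strand, which is the minus strand for all 3, and for Tlr1 and Tlr6 the more upstream of the 2 annotated starts was taken. The Tlr2 window is chr3:83841609-83841858, the Tlr1 window chr5:64933559-64933808 and the Tlr6 window chr5:64960049-64960298. Capitals mark matches to the 6 motifs searched on both strands: GAGGAA, the core of the site of the myeloid factor PU.1; GGGCGG, the GC box; TATAAA, the TATA box; TGANTCA, for AP-1; TTGCNNAA, for C/EBP; and the core of the interferon-stimulated response element, where a match on the other strand reads as its reverse complement.
Tlr2: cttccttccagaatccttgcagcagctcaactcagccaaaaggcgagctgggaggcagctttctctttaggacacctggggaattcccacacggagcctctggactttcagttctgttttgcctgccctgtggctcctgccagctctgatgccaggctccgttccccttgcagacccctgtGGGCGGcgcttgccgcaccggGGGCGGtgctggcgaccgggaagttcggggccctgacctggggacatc
Tlr1: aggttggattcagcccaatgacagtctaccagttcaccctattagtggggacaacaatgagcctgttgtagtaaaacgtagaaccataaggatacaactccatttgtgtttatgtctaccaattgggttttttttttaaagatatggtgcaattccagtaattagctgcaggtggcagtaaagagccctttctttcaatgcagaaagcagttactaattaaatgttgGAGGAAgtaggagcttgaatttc
Tlr6: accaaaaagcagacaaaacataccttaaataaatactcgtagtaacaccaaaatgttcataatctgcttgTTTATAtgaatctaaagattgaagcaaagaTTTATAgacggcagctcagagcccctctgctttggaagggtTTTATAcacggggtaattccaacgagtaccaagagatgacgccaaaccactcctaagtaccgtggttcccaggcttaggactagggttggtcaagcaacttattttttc
The Tlr2 window held GGGCGG from -69 and from -48 relative to the start, the Tlr1 window held GAGGAA from -23, and the Tlr6 window held TATAAA on the other strand from -180, -150 and -109. At the other annotated start of Tlr6, whose sequence is not shown, the window held the interferon-stimulated element on the other strand from -116 and from -110, which overlap, and TTGCNNAA on the other strand from -89. The matches in the windows shown did not overlap. In the full windows, which run to 50 bases after the start, GAGGAA was present in 28.3% of all 32851 windows of the table, GGGCGG in 35.7%, TATAAA in 13.6%, TTGCNNAA in 10.8%, TGANTCA in 7.81% and the interferon-stimulated element in 3.44%. These matches describe letters only and say nothing of binding in these cells.

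The receptors of nucleic acids that were measured on both arrays, Tlr7 and Tlr9, lay far apart. Tlr7, a receptor of single-stranded RNA, had a signal of 355 in Jam3-null cells and 43.3 in WT cells, a log2 difference of 3.13 (8.77-fold, error-model SD 0.23). As with Tlr4 the WT signal was dim, with an intensity of 94.0 over a local background of 46 before subtraction, and the difference was 2.16 after normexp correction. Tlr9, the receptor of unmethylated DNA, had 1383 and 1476, a log2 difference of 0.00 with an error-model SD of 0.20, bright on both arrays. The sign of the Tlr9 value turned in 3 of 10 alternatives, which kept it between -0.09 and 0.10. The Tlr7 and Tlr9 differences were 3.13 apart, with an error-model SD of 0.31. Their probes lie at chrX:163743189-163743248 and chr9:106128979-106129038.

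Tlr8 lies next to Tlr7 on the X chromosome, with 0 other genes starting between them in RefSeq, and was seen where Tlr7 was bright. The probe shown above had a signal of 40.8 in Jam3-null cells and 3.49, not well above background, on the WT array. Against the dimmest signal that passed on the WT array, Tlr8 was at least 2.83-fold higher on the Jam3-null array (at least 1.67-fold after normexp correction). A bound of this kind compares the bright signal with the dimmest one that the scanner software would still call, and is no fold. Tlr3, the receptor of double-stranded RNA, passed on neither array with either of its probes, whose signals were 5.30 and 5.12 for Jam3-null and 3.18 and 3.09 for WT. These probes lie at chr8:46482009-46482068 and chr8:46481729-46481788.

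Tlr5, the flagellin receptor, was at the limit of detection on both arrays. Its probe, at chr1:184906201-184906260 and named from GenBank entry AF186107, had a signal of 23.1 on the Jam3-null array, not well above background there, and of 21.0 on the WT array, which passed. The lowest processed signal that passed was 25.9 for Jam3-null and 15.4 for WT, so the WT array called dimmer probes. No bound in the measured direction and no fold could be given for Tlr5.

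**Figure D3:**
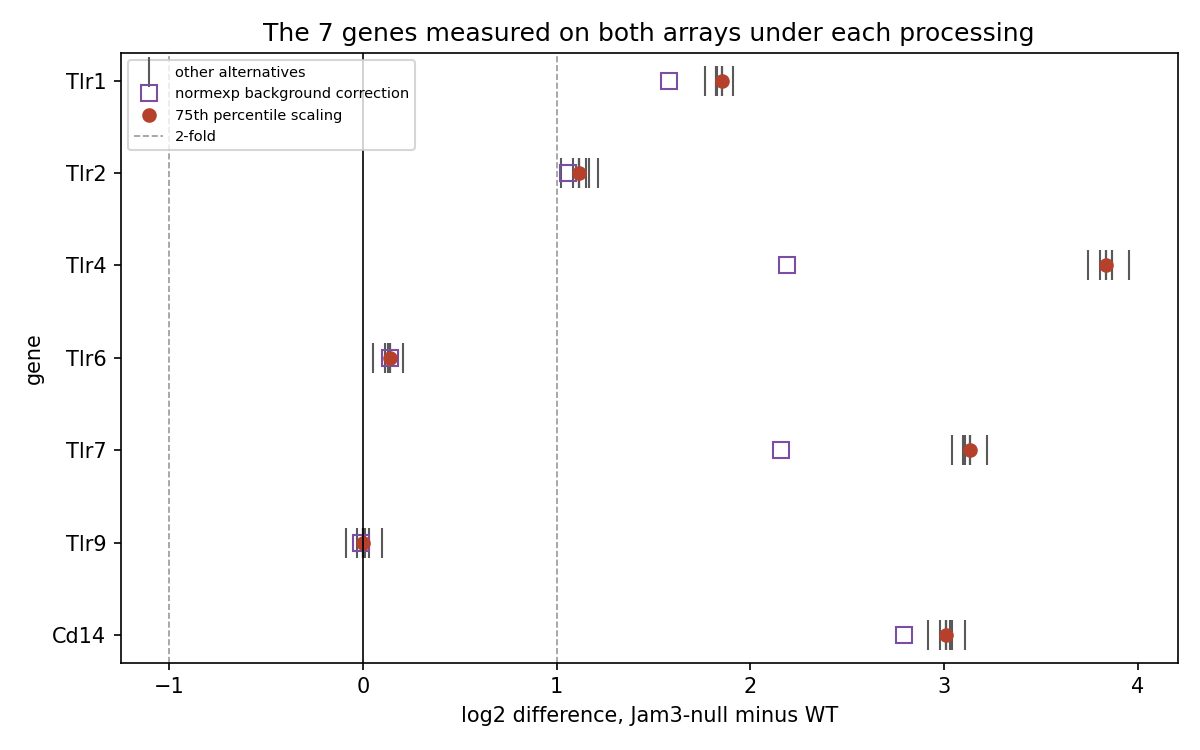
Log2 difference, Jam3-null minus WT, of the 7 genes measured on both arrays after 75th percentile scaling (red points), after normexp background correction (open squares) and under the other alternatives (ticks), with dashed lines at 2-fold. Normexp correction takes Tlr4 from 3.83 to 2.19 and Tlr7 from 3.13 to 2.16, while the ticks of each gene stay close to its red point.

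Genes that work with the receptors were described from 8 lists of 90 genes, written from textbook knowledge and called pathway genes here. The lists span co-receptors, further TLRs, adaptors, kinases, transcription factors, inhibitors and induced cytokines, and also receptors of other families that sense microbes. No probe bore the names Tlr11, Tlr12 or Tlr13, which made up 1 list. Of the other 87 genes 71 were measured on both arrays, with 29 at least 2-fold higher on the Jam3-null array, 5 at least 2-fold lower and a median difference of 0.45. Beside these stand the 10.3% and 8.59% of all measured genes given above. The lists of inhibitors, of cytokines and of other receptors held 6 of these higher genes each, and the plot by role shows the rest.

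Adaptors connect the TIR domain to kinases. Myd88, the adaptor of all TLRs but TLR3, had signals of 5456 and 2333 and a log2 difference of 1.32. Ticam1, which encodes TRIF, the adaptor of TLR3 and TLR4, had 1027 and 429 and a difference of 1.35 with both of its probes higher. The bridging adaptor Ticam2 was dim, with 35.9 and 51.5, and its difference of -0.42 became -0.02 after normexp correction. Of 5 measured adaptors 2 passed 2-fold upward and 0 downward (median 0.30).

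Of 17 kinases and ubiquitin ligases, all measured on both arrays, 4 passed 2-fold upward and 0 downward (median -0.04). The largest values were those of Map3k8, which encodes the ERK-activating kinase TPL2, at 2.64 (1.25 after normexp correction), of Ikbke at 2.49 (1.82) and of the MyD88-associated Irak2 at 1.77 (1.44). The fourth was Irak4, named after its value was seen, at 1.30 with both of its probes higher. The other 13 genes, among them Irak1 (-0.17, above 0 under 1 other scaling), Traf6 (-0.35) and Ikbkb (-0.16), were within 2-fold.

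Transcription factors of the pathway went both ways. Of 11 measured genes 4 passed 2-fold upward, 2 of them after normexp correction, and 1 downward (median 0.43). Irf7, which drives type I interferon genes below TLR7 and TLR9, was at 2.07 (1.28 after normexp correction), and the NF-kB subunit gene Relb at 1.34 (0.96). Irf8 was at -1.34 with both of its probes lower. Rela, the main NF-kB subunit, was at 0.09, with 1 probe above and 1 below 0, and was below 0 in 1 other scaling.

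The genes listed as inhibitors of the pathway all lay above 0, in each of the 6 scalings compared, although 1 of 3 probes of Tollip was at -0.04. Of 12 genes 6 passed 2-fold upward and 0 downward (median 1.04, range 0.18 to 2.19). Atf3, a repressor of inflammatory genes, was at 2.19, the MAP kinase phosphatase gene Dusp1 at 1.75 and Socs1, a feedback inhibitor of cytokine signalling, at 1.53. Irak3, the inhibitory member of the IRAK family, was at 1.51 with all 3 of its probes higher, and the NF-kB inhibitor Nfkbia at 1.10. Irak3 and Nfkbia were named after their values were seen. Nfkbia, Atf3 and Dusp1 are also known as general stress-response genes.

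Cytokines and effectors that TLRs are known to induce were measured in part. Of 20 genes 9 were measured on both arrays, 2 on each array alone and 7 on neither. Over all genes these numbers were 487 on the Jam3-null array alone, 2458 on the WT array alone and 10028 on neither. The chemokine genes Ccl2, Ccl5 and Cxcl10 were higher by 4.79, 2.91 and 2.35 (3.28, 2.36 and 1.15 after normexp correction). The WT signals of Ccl2 and Cxcl10 were dim, at 31.8 and 28.7. Il1b, the gene of interleukin-1 beta, passed in Jam3-null cells alone, with signals of 264 and 12.7, and was at least 18.3-fold higher there (at least 4.40-fold after normexp correction). In the other direction Il12a, which encodes the p35 subunit of interleukin-12, had 303 and 1479 and a difference of -2.19. The chemokine genes Ccl3 and Ccl4 lay below 0, at -0.29 and -0.58, while Cxcl2 was at 1.59. These chemokine genes were named after their values were seen. Il1a and Ptgs2 passed in WT cells alone, with dim signals that gave no bound, and Cxcl1 passed in Jam3-null cells alone. Il6, Il10, Il12b, Nos2, Ifnb1, Cd40 and Cd86 passed on neither array. Of the 9 measured genes 6 passed 2-fold upward and 1 downward (median 1.35), and 5 and 1 after normexp correction, where Cd80 was at 0.58.

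**Figure D4:**
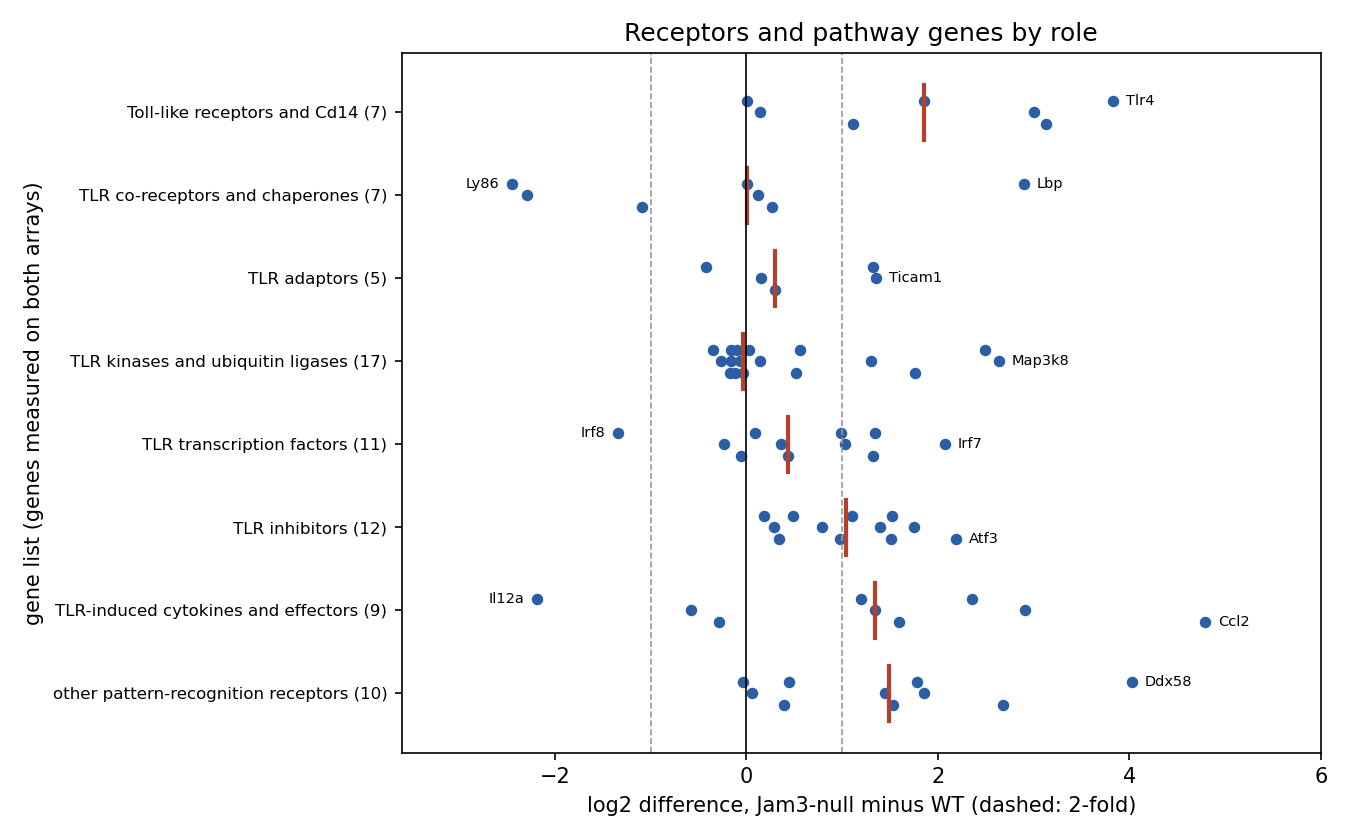
Log2 difference, Jam3-null minus WT, of each gene measured on both arrays (points) by list, with the number of measured genes in brackets, the median of each list as a red line and dashed lines at 2-fold. The 12 genes listed as inhibitors all lie right of 0 with a median of 1.04, whereas the co-receptors span from Ly86 at -2.45 to Lbp at 2.90. Of all 14360 genes measured on both arrays, not drawn here, 6428 lay above 0.

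Markers of cell state and of other cells also differed between the arrays. The markers of the sort and of the leukaemia were well above background on both arrays: Kit was at 0.09, Ptprc at 0.61, Hoxa9 at 0.73 and Meis1 at 0.81, while Itgam, which encodes the alpha chain of Mac-1, was at 3.71. Of 10 neutrophil maturation markers 10 were at least 2-fold higher, with signals summing to 1004660 for Jam3-null and 177425 for WT. Of 10 monocyte and macrophage markers 8 were measured on both arrays and 4 were at least 2-fold higher, among them Csf1r at 1.88, Adgre1 at 2.03 and Lyz2 at 3.36, while Cd68 was at -0.89 and Ly6c1 at -0.72. Their signals summed to 243899 for Jam3-null and 86739 for WT, and Lyz2 carried this difference. The other 9 markers summed to 43132 and 65778, the opposite direction, and Ly6c1 made up most of both sums, at 33674 and 59347. By gene, 5 of the 8 measured markers lay above 0 and 3 below, so these sums do not speak for the list. Fcgr1 passed for Jam3-null alone, at least 3.93-fold higher there (at least 1.63-fold after normexp correction). Mrc1 passed on neither array. Megakaryocyte markers went both ways. Of the erythroid markers, Klf1 was at -0.23 with an error-model SD of 0.24 (-0.09 after normexp correction). Hba-a1 was at 1.73 and Gp9 at 2.08, and Alas2 passed for Jam3-null alone, at least 9.40-fold higher (at least 3.18-fold after normexp correction). Itga2b and Pf4 passed for WT alone, at least 3.75-fold and at least 2.24-fold lower in Jam3-null cells (at least 1.85-fold and 1.35-fold after normexp correction). The part of these markers in the receptor differences was not tested. An array of sorted cells in bulk cannot tell more cells of a type from more RNA per cell.

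Most lymphoid and dendritic markers were dim or below 0. Of the B cell markers, Cd79a and Pax5 passed on neither array, and Ighm was at -1.69. Of the dendritic cell markers, Siglech and Clec9a passed on neither array, Itgax was at -1.19 (-0.65 after normexp correction) and Xcr1 at 0.53. Flt3 and Tcf4 were at -3.51 and -2.72. The list summed to 2563 for Jam3-null and 18402 for WT, mostly from Tcf4 (2067 and 14594) and Flt3 (291 and 3534). T cell markers summed to 227 for Jam3-null and 172 for WT, although the 3 measured on both arrays, Cd3e, Cd3g and Cd4, lay between -0.25 and -0.11: Cd3d passed for Jam3-null alone (71.2 and 13.3), and Cd8a passed on neither array (26.4 and 4.60). NK cell markers summed to 75.8 and 28.8, mainly from Klrb1c (53.6 and 15.6). Cd180, Ly86 and Tlr9 are also expressed by B cells and dendritic cells, and the part of such cells in their values was not tested.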

How the data were processed

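Gene expression was measured on 2 Agilent one-colour arrays, 1 of Jam3-null and 1 of WT cells, each from 3 mice per the labels. Per the file headers, Feature Extraction 10.7.3.1 (10.7 in the submitters' processing notes) produced the intensities, background-subtracted and detrended within the array, and were deposited on a linear scale, not normalized between arrays. The authors' value table holds log2 values (median 5.66 in both columns, correlation 0.999 with the log2 signals over probes on each array). Their log2 scale follows the scanner values; how they were normalized is not stated here, so they served as an alternative.

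Of 43379 non-control spots, 151 and 163 flagged as outliers were left out and 0 were saturated. Log2 processed signals minus the array's 75th percentile (667.8 and 713.9) were averaged over the spots of a probe, and a gene took its brightest probe. The shares of spots well above background were 55.0% (Jam3-null) and 61.8% (WT). A probe was measured where most of its spots were. For a gene measured on 1 array, a bound set its signal against the higher of the other array's lowest measured signal and the probe's own. Probes were named by RefSeq accession (27761), a unique older symbol (460) or the file. Both arrays share a slide and a scan, and the gene-level step was tested on simulated data. All members, the 3 largest differences of each list and the sort markers were named; any other gene was chosen after its value was seen. The members and lists were chosen with earlier results of these data known, and 2-fold is a description, not a test. R 4.3.3 with limma 3.58.1 and Python 3.11.15 were used, with normexp, quantile, median, cyclic loess and spike-in scaling, the authors' table, other filters, probe means and fold thresholds as alternatives.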

Additional observations from a re-analysis of the deposited data

How the results depend on the processing

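The count of 5 receptor genes at least 2-fold higher was also 5 under normexp, quantile, median, cyclic loess and spike-in scaling, with the authors' table, with flagged spots kept, with probe means and at 1.5-fold. It was 4 at 3-fold (without Tlr2), 6 of 10 with no filter on dim probes, and 2 of 3 with the stricter filter, which keeps only genes with a mean signal above the median and so leaves out Tlr1, Tlr4, Tlr6 and Tlr7. The count of genes at least 2-fold lower was 0 in all of these. Of the pathway genes 29 were higher and 5 lower, against 10 and 2 of 39 with the stricter filter and 15 and 3 at 3-fold; under the other alternatives the counts ran from 26 to 33 and from 4 to 5, and the median from 0.36 to 0.56 beside 0.27 with the stricter filter. Over all genes, 1761 were higher and 984 lower with cyclic loess, and 1317 and 1497 with spike-in scaling, against 1473 and 1233, and the median of all genes ranged from -0.16 to 0.06 over the scalings. Normexp correction moved Tlr1, Tlr4, Tlr7 and Cd14 by more than their error-model SD for a single spot. No other alternative moved a receptor gene by that much. Signal over background limits Tlr4, Tlr5, Tlr7 and Tlr8. No paired analysis was possible because each genotype has 1 array.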

Other observations

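Receptors of other families that sense microbes or their nucleic acids were read beside the TLRs, from a list of 12 genes. Of 10 that were measured, 6 passed 2-fold upward in Jam3-null cells and 0 downward (median 1.49). The cytosolic RNA sensors Ddx58, which encodes RIG-I, and Ifih1, which encodes MDA5, had log2 differences of 4.03 (2.68 after normexp correction) and 1.53. The other measured Ddx58 probe was at 0.81, so its probes disagree in size, and both Ifih1 probes were higher. Nod2 and Nod1, sensors of bacterial cell wall fragments, were at 2.68 (1.64) and 1.79. Trem1, an amplifier of TLR signals on neutrophils and monocytes, was at 1.85, with both probes higher, and the beta-glucan receptor Clec7a at 1.45. Ifih1, Nod1 and Clec7a were named after their values were seen.

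Mb21d1, which encodes cGAS, was at 0.06, and Tmem173, which encodes STING, was at -0.03, with the sign turning under 1 and 3 of the other scalings, while Aim2 passed on neither array. These 3 genes were named after their values were seen. An unassigned transcript that the array describes as similar to dog TLR2 passed on neither array.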
